A study of Mus musculus with 16 samples.

Results

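The RNA changes that 4 sorted populations of the mouse mammary epithelium shared when Cpeb2 was deleted are described here, with weight on genes outside the cell cycle. For each gene the shared knockout effect was the mean of its 4 within-population differences in log2 expression, knockout minus wild type, so that 1 log2 unit is a 2-fold difference. All 16 arrays entered it, and the animal was the unit of replication: each of the 4 mice gave 1 value, the mean of its 4 populations. Of 17097 genes measured, 492 (2.88%) were called, which means a Benjamini-Hochberg adjusted p under 0.05 in limma on the 2 knockout and 2 wild-type values. Of these, 440 were lower in knockout mice (2.57% of all genes) and 52 were higher (0.304%). With the parent pair as a block the call rule gave 994 genes (5.81%), all 492 among them, and a fit over the 16 arrays with the animal as a random block gave 1748 (10.2%), 480 of the 492 among them.

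The 2 knockout mice were Cpeb2 -/- and the 2 wild-type mice Cpeb2 +/+. All 4 were females of the line DMI on the strain C57BL/6J 129, aged 10 weeks and 2 days, and all 4 carried Sox2-Cre +/+, and mice without Cre were not analysed here. Sox2 drives this Cre in the early embryo, from which the whole animal derives, so a deletion made by it is not limited to the gland. The mice came from 2 parent pairs, each of which gave 1 knockout and 1 wild-type mouse. From every mouse myoepithelial cells (Epcam low, CD49f high) and 3 luminal populations (Epcam high, CD49f low) were sorted: alveolar progenitors, which lacked Sca1 and had CD49b, ductal progenitors, which had both, and non-clonogenic luminal cells, which had Sca1 only. The markers followed the labels: 8 of 8 measured myoepithelial markers were highest in the myoepithelial arrays, 6 of 6 luminal markers were lowest there, 5 of 5 alveolar markers were highest in alveolar progenitors, and of 5 hormone-sensing markers 3 were highest in non-clonogenic luminal cells and 2 in ductal progenitors. With 2 mice per genotype, the number of mice limits the precision of every value below.

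CPEB2 is an RNA-binding protein of the cytoplasmic polyadenylation element binding family. These proteins sit on short U-rich elements in the 3′ untranslated regions of messenger RNAs and lengthen or shorten the poly(A) tail, which turns translation up or down. The mammary epithelium has an outer contractile myoepithelial layer and an inner luminal layer of hormone-sensing cells and progenitors. Luminal cells that carry the estrogen and progesterone receptors answer ovarian hormones by releasing paracrine signals, among them RANKL (Tnfsf11), which drive the division of neighbouring cells. The series' title puts Cpeb2 and RANKL translation at the centre of the study. The arrays measured RNA abundance, not translation.

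Cpeb2 RNA itself was lower in both knockout mice, in each population. Wild-type arrays of non-clonogenic luminal cells read 8.33 and 8.66, knockout arrays 6.42 and 7.67. In ductal progenitors they read 7.88 and 8.00 against 6.39 and 7.35, in alveolar progenitors 5.52 and 5.53 against 5.45 and 4.81, and in myoepithelial cells 5.41 and 6.03 against 5.25 and 4.71. The genotypes did not overlap in any of the 4, but in alveolar progenitors the gap was small. The shared difference was -0.92 ± 0.13 log2 units (SE; adjusted p = 0.0353 in limma). The other probe sets of Cpeb2 showed -0.33 ± 0.16 and -0.28 ± 0.08, and with the mean of all 3 the gene was not called (-0.51, adjusted p = 0.0996 in limma). The place of these probe sets against the deletion was not given in the sources used here. No relative of Cpeb2 was called at its brightest probe set: Cpeb1 showed 0.16 ± 0.03 (adjusted p = 0.0757 in limma), Cpeb3 0.09 ± 0.10 and Cpeb4 0.08 ± 0.23. The probe sets of Cpeb4 disagreed: the other 2 showed 0.10 ± 0.11 and 0.75 ± 0.12, the latter with adjusted p = 0.0588 over all probe sets in limma. Tnfsf11 RNA read 5.25 and 5.29 as the means of the wild-type mice and 5.17 and 5.25 as those of the knockout mice, all close to the lower quartile of the arrays, which was 5.13. Its difference of -0.06 ± 0.05 was not called (adjusted p = 0.526 in limma).

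The shared effect was first a fall of cell cycle RNAs. Lists of mitosis genes and of DNA replication and repair genes held 328 genes, of which 293 were measured. Of these, 151 fell and 0 rose, against 2.88% called over all genes, and the median difference was -0.85 against 0.02 over all genes. Mcm5, part of the helicase that opens DNA for replication, fell most: the animal means were 10.83 and 10.37 in wild-type mice and 7.35 and 7.25 in knockout mice, a difference of -3.30 ± 0.18. Pclaf, a partner of the sliding clamp PCNA, gave 9.19 and 9.12 against 5.93 and 5.87, a difference of -3.26 ± 0.09 (adjusted p = 0.00115 in limma). Zwilch, part of the kinetochore checkpoint complex, differed by -3.22, the mitotic kinase gene Pbk by -2.86, the cyclin gene Ccna2 by -2.82 and the cytokinesis regulator Racgap1 by -2.80, all called. Of the replication list, the ribonucleotide reductase subunit Rrm2 fell by 2.63, the helicase subunit Mcm2 by 2.63 and the primase subunit Prim1 by 2.61. In bulk samples a smaller share of dividing cells and less of these RNAs per cell cannot be told apart.

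Knockout mice had about the same low level of these RNAs in every population, and wild-type mice did not. The mean of the mitosis list lay between 6.56 and 6.84 in the 8 knockout arrays. Wild-type mouse 1 read 8.26, 8.14, 7.12 and 6.81 in non-clonogenic luminal cells, ductal progenitors, alveolar progenitors and myoepithelial cells, and wild-type mouse 2 read 7.80, 7.79, 8.03 and 7.69. So mouse 1 was the higher of the wild-type mice in the Sca1 positive luminal cells and mouse 2 in the other populations. All wild-type arrays but that of myoepithelial cells from mouse 1 were above every knockout array. The opposite deviations cancel in part when 4 populations are averaged per mouse, so the spread between animal means is smaller than the spread between arrays.

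**Figure D1:**
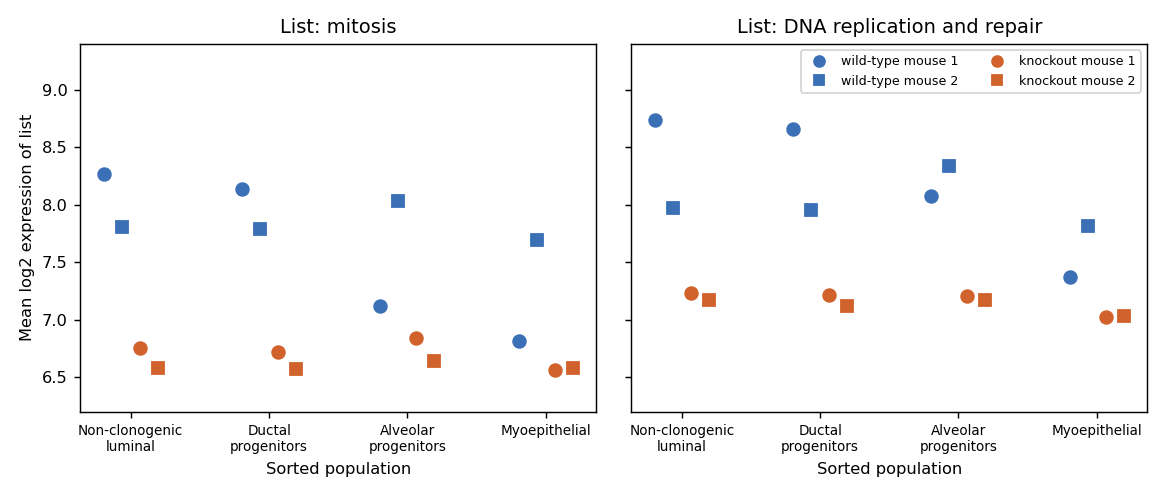
Mean log2 expression of the measured members of the mitosis list (left) and of the DNA replication and repair list (right) in each of the 16 arrays, by sorted population; colour is genotype and marker shape is the mouse within the genotype. The 8 knockout arrays sit between 6.56 and 6.84 on the left panel, and the wild-type arrays range from 6.81 to 8.26.

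Promoters were searched for motifs known from cell cycle genes. E2F factors switch on replication genes before S phase, and CHR elements serve genes of late cell cycle phases. The promoters of 6 genes that fell are given, 4 chosen because they hold an E2F match and 2 large falls without such a match (Fam111a and Idh1), with that of Aqp3, which rose, from 250 bases before to 50 after the start of transcription, from RefSeq on GRCm38.p6 and on the strand of the gene. Pclaf (chr9:65890073-65890372, plus strand) and Mcm5 (chr8:75109259-75109558, plus) are on the cell cycle lists. Dnajc9 (chr14:20388861-20389160, minus) and Topbp1 (chr9:103305077-103305376, plus) are not, nor are Fam111a (chr19:12573260-12573559, plus) and Idh1 (chr1:65186430-65186729, minus), and their values follow below, as do those of Aqp3 (chr4:41098134-41098433, minus). Capitals mark matches on either strand to the E2F motif (TTTCCCGC, TTTGGCGC, TTTCGCGC or TTTGCCGC), the CHR (TTTGAA), the CRE (TGACGTCA), the ISRE of interferon-regulated genes or CCAAT.
Pclaf: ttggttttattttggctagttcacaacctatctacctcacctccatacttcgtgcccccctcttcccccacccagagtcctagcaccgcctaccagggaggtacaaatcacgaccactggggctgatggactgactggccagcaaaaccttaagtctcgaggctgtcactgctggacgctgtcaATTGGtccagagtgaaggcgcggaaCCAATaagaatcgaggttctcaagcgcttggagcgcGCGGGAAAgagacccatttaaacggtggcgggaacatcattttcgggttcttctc
Mcm5: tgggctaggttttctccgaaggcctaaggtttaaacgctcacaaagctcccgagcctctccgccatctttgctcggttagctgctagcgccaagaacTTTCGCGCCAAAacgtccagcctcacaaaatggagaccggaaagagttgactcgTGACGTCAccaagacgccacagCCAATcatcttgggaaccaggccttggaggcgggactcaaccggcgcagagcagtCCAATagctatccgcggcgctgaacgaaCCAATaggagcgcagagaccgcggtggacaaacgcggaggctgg
Dnajc9: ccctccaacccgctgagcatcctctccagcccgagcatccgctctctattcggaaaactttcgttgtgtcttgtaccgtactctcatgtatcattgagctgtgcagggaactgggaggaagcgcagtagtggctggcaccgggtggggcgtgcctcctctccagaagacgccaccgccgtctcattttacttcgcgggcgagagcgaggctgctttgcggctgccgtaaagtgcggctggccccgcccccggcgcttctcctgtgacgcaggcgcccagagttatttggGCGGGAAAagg
Topbp1: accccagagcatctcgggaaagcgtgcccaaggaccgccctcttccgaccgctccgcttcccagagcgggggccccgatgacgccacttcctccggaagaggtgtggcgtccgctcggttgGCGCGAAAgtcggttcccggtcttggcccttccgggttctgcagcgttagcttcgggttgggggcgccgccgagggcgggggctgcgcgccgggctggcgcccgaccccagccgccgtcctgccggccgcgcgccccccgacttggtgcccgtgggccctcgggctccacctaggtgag
Fam111a: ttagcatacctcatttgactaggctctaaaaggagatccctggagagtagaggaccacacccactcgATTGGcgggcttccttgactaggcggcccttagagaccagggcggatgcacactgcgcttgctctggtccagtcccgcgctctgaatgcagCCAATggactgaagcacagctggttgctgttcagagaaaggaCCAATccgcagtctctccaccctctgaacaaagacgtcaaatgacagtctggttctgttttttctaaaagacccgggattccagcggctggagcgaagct
Idh1: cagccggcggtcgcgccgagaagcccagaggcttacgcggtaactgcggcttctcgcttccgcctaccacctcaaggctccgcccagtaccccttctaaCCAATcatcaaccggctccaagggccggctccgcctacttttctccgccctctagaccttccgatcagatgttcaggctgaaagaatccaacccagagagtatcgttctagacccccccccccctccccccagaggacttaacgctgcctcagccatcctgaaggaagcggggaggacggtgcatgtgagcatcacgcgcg
Aqp3: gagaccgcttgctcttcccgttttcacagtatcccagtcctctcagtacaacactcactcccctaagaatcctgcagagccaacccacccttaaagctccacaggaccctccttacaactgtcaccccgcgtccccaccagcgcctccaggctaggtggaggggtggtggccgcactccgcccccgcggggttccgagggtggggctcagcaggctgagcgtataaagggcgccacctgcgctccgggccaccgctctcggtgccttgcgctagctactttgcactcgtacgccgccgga
Pclaf holds an E2F match across its start and 2 CCAAT matches upstream, and Mcm5 holds 2 overlapping E2F matches, a CRE and 3 CCAAT matches. Dnajc9 and Topbp1 hold 1 E2F match each. Fam111a holds 3 CCAAT matches and Idh1 holds 1, and Aqp3 holds no match to any of these letters. Promoters not given here include that of Dhcr7, which fell and holds no match. Of genes that rose, Esr1 holds 1 CCAAT match and Sphk1 none.

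Over 13605 measured genes with a promoter in the table, the E2F letters were in 3.36%. They were in 29 of 122 called cell cycle genes (23.8%), in 19 of 243 other genes that fell (7.82%) and in 1 of 42 that rose (2.38%). The CHR letters were in 13.3% of all, 36.9% of called cell cycle genes, 18.9% of other genes that fell and 11.9% of those that rose. CCAAT was in 38.4%, 63.1%, 44.4% and 28.6% in the same order. The CRE was in 2.69%, 7.38%, 1.65% and 0 of 42, and the ISRE in 0.779% of all and 1 of 243 other genes that fell. Over the whole cell cycle lists, called or not, the E2F letters were in 18.1%, CHR in 36.2%, CCAAT in 64.2% and the CRE in 4.94%. The CHR and CCAAT shares of the called cell cycle genes were thus close to those of their lists. Where a gene had several starts, the first one listed was used, and these shares describe letters, not binding.

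Off the cell cycle lists, 289 genes fell and 52 rose. The lists do not hold every gene with a cell cycle role: Dsn1, Topbp1, Haus1 and Chek2, named below, are off them. Of the 289, 231 had the same sign in all 4 populations, 151 had it in all 8 differences within a parent pair and population, and 127 did not overlap between genotypes in any population. Of the 52, the counts were 43, 27 and 21. Over all genes, 25.9% had the same sign in 4 populations, 7.04% in 8 within-pair differences and 4.19% did not overlap in 4 populations. The call rests on the mean of these same differences, so the counts describe the called genes and are no test of them. The genes named below by size come from the 151 and the 27.

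Of the 15 largest falls off the lists, Fam111a, Dsn1, Dnajc9, H3c14, Topbp1 and Ndc1 have known roles at chromosomes or the nuclear envelope. Fam111a encodes a protease of the replication fork. Among non-clonogenic luminal cells its wild-type arrays read 7.74 and 6.75 and its knockout arrays 4.52 and 4.48, in ductal progenitors 7.75 and 7.15 against 4.67 and 4.54. In alveolar progenitors they read 6.52 and 7.23 against 4.87 and 4.72, and in myoepithelial cells 4.91 and 5.61 against 4.27 and 4.33. No population overlapped, and all knockout values lay under the lower quartile of 5.13. The shared fall of 2.16 ± 0.05 (adjusted p = 0.000918 in limma) may therefore be a lower bound in size. Dsn1, a kinetochore component, fell by 1.99, the histone chaperone gene Dnajc9 by 1.73, the replication checkpoint gene Topbp1 by 1.40 and the nuclear pore gene Ndc1 by 1.37. The animal means of Dnajc9 were 8.82 and 8.71 in wild-type and 7.19 and 6.88 in knockout mice, and those of Topbp1 were 9.07 and 8.73 against 7.55 and 7.45. H3c14, a replication-dependent histone H3 gene, fell by 1.62 at a probe set that can also bind near-identical histone genes. With the mean of all probe sets per gene, H3c14 was at -0.72 and not called, and Topbp1 was at -0.69 and called.

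Of the other genes among the 151, 7 were picked by name after their values were seen, so they show no theme, and Haus1 and Chek2 have known cell cycle roles although they are off the lists. Parp1, which senses DNA breaks, fell by 1.16, the nucleosome-binding gene Hmgn5 by 1.17, the pore gene Nup205 by 1.01, the inner nuclear membrane gene Lbr by 0.99, the heterochromatin gene Cbx5 by 0.99, the spindle gene Haus1 by 0.90 and the checkpoint kinase gene Chek2 by 0.66. Each was called, had 8 of 8 within-pair signs and did not overlap in any population. Haus1 differed least across populations, with -0.96 in non-clonogenic luminal cells, -0.96 in ductal progenitors, -0.87 in alveolar progenitors and -0.80 in myoepithelial cells. The other large falls by rule were of Slfn9 (-1.95 ± 0.19), a gene of the schlafen family, the ribosomal S6 kinase gene Rps6ka6 (-1.49 ± 0.12), Nrep (-1.45 ± 0.15), Lacc1 (-1.36 ± 0.11), which encodes an enzyme of purine metabolism in macrophages, and the sialyltransferase gene St6gal1 (-1.26 ± 0.10).

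Idh1, Nnt, Aldh3a1 and Aldh1a7, enzymes of redox and aldehyde metabolism, were also among the 15 largest falls. Idh1 makes NADPH in the cytosol by oxidising isocitrate. Its wild-type arrays read 9.95 and 9.58 and its knockout arrays 7.63 and 7.20 in non-clonogenic luminal cells, and 9.74 and 9.55 against 7.43 and 7.46 in ductal progenitors. In alveolar progenitors they read 9.0 and 8.88 against 8.75 and 8.49, and in myoepithelial cells 8.40 and 8.84 against 7.67 and 7.39. The genotypes did not overlap anywhere, the fall in alveolar progenitors was the smallest (-0.32), and the effect differed between populations (adjusted p = 0.0281 for limma's F test). The shared difference was -1.49 ± 0.13 (adjusted p = 0.00902 in limma), a 2.81-fold fall.

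Nnt, the mitochondrial transhydrogenase that regenerates NADPH from NADH, fell by 1.34 ± 0.13 (adjusted p = 0.0153 in limma). Its wild-type arrays read 10.19 and 9.77 in non-clonogenic luminal cells, 10.14 and 9.57 in ductal progenitors, 8.21 and 8.66 in alveolar progenitors and 8.69 and 8.50 in myoepithelial cells. The knockout arrays read 8.30 and 8.70, 7.33 and 8.45, 7.74 and 7.44, and 7.75 and 7.34 in the same order. Every knockout array was below the wild-type arrays of its population, and the other probe set of Nnt showed -1.05 ± 0.16. C57BL/6J mice carry a deletion in Nnt and 129 mice do not, and which allele each of these 4 mice had was not measured here. The aldehyde dehydrogenase genes Aldh3a1 (-1.36 ± 0.16) and Aldh1a7 (-1.32 ± 0.20) fell as well. Aldh3a1 differed by -2.75 and -2.06 in the Sca1 positive luminal cells and by -0.45 and -0.17 in alveolar progenitors and myoepithelial cells. Aldh1a7 differed by -2.39, -1.45, -0.14 and -1.30 in the same order, and it read 4.04 or less in every array of alveolar progenitors, under the lower quartile of 5.13.

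A wider list of 77 measured genes for NADPH, aldehyde and electrophile enzymes was drawn up after these values had been seen and holds the 4 genes above. It had 11 members that fell and 0 that rose (14.3% called, against 2.88% of all genes), and since the members were picked with their values in view nothing is read from that share. Its median difference was -0.08, with 44 of 77 means below 0. Besides the 4 above these were Ptgr1 (-1.26), which reduces lipid aldehydes, the efflux pump gene Abcg2 (-1.17), the catalase gene Cat (-1.09), the peroxiredoxin gene Prdx4 (-1.06), the microsomal glutathione transferase gene Mgst1 (-1.0), the succinic semialdehyde dehydrogenase gene Aldh5a1 (-0.74) and the thiopurine methyltransferase gene Tpmt (-0.70). Other members had means above 0 and were not called: the heme oxygenase gene Hmox1 was at 1.03 ± 0.24 with no overlap in any population (adjusted p = 0.0931 in limma), the glutathione synthesis gene Gclc at 0.62 ± 0.13 and the sulfiredoxin gene Srxn1 at 0.57 ± 0.12. Cat was not lower everywhere: in alveolar progenitors it read 9.94 and 10.30 in wild-type and 10.12 and 9.98 in knockout mice.

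**Figure D2:**
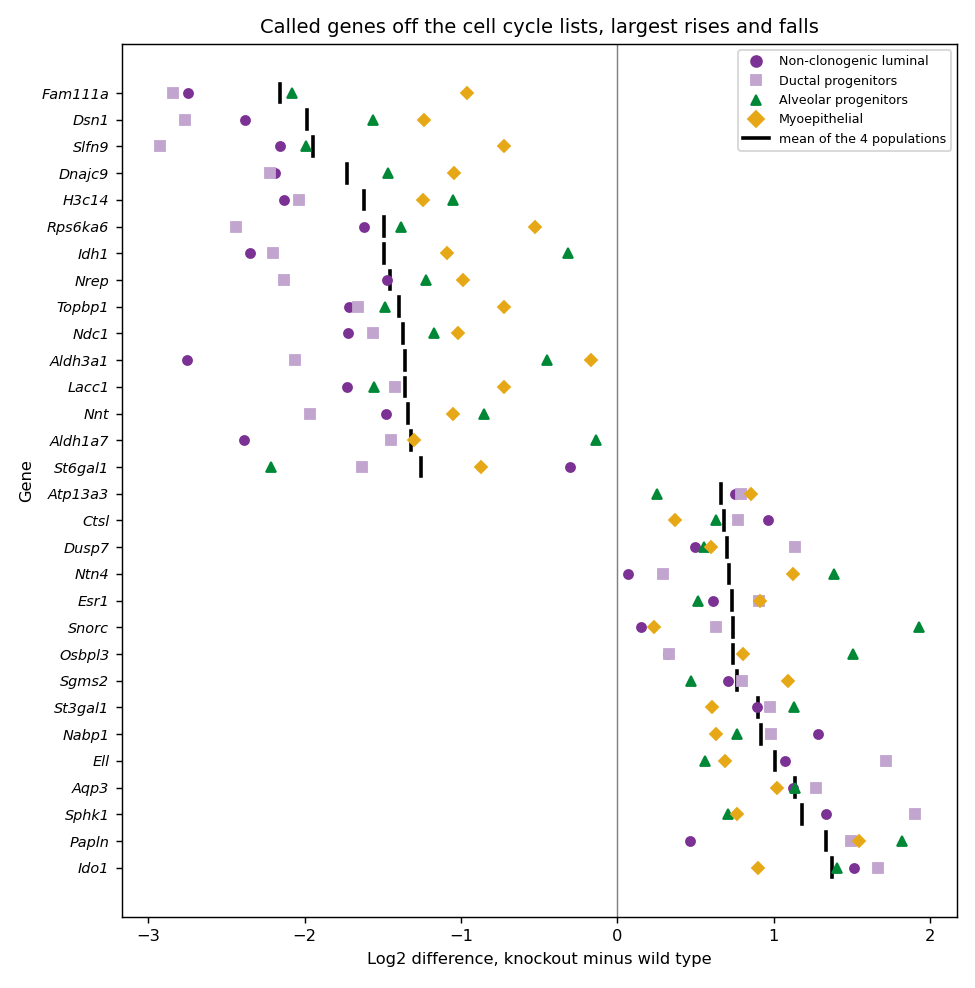
Log2 differences, knockout minus wild type, of the 15 largest falls and 15 largest rises among called genes off the cell cycle lists whose 8 within-pair differences had 1 sign; points are the 4 sorted populations and the bar is their mean. Fam111a has the largest shared fall (-2.16) and Ido1 the largest shared rise (1.37), and no point crosses 0.

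Smaller falls came from mitochondrial genes. Of 50 oxidative phosphorylation genes, 5 fell and 0 rose (10.0%, against 2.88% of all genes). A mean below 0 was found for 49 of 50, with a median of -0.31 against 0.02 over all genes. The called members were Sdhd of complex II (-0.67 ± 0.10), the ATP synthase gene Atp5k (-0.66 ± 0.10) and the complex I genes Ndufb8 (-0.59 ± 0.09), Ndufa5 (-0.50 ± 0.07) and Ndufa4 (-0.44 ± 0.07). Of 41 mitochondrial translation genes, the ribosomal protein genes Mrpl13 (-0.77 ± 0.12) and Mrps15 (-0.75 ± 0.11) fell. That is 4.88% called, against 2.88% of all genes, and the list's median was -0.24. Of 40 cytosolic ribosomal protein genes none was called and the median was -0.06; the largest difference was that of Rpl14 (-0.79 ± 0.14, adjusted p = 0.0568 in limma). Ndufb8 and Mrps15 were not called with the mean of all probe sets.

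Of 19 cholesterol synthesis genes, Dhcr7 alone was called (5.26%, against 2.88% of all genes). It encodes the reductase of the last step of the pathway. Its wild-type arrays read 8.97 and 9.90 in non-clonogenic luminal cells, 9.24 and 9.62 in ductal progenitors, 10.00 and 9.36 in alveolar progenitors and 7.28 and 7.33 in myoepithelial cells. The knockout arrays read 8.47 and 8.10, 8.21 and 8.37, 9.05 and 8.74, and 6.17 and 6.39, below the wild-type arrays in each population. The shared difference was -1.02 ± 0.12 (adjusted p = 0.0207 in limma), and the list's median was -0.32. Of 20 fatty acid and triglyceride synthesis genes none was called, and the desaturase genes Fads1 (-0.87 ± 0.25) and Fads2 (-0.71 ± 0.16) differed most.

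The largest rise was that of Ido1, which starts the breakdown of tryptophan to kynurenine. Its wild-type arrays read 10.65 and 11.09 in non-clonogenic luminal cells, 10.11 and 11.42 in ductal progenitors, 7.27 and 6.66 in alveolar progenitors and 5.37 and 5.66 in myoepithelial cells. The knockout arrays read 12.30 and 12.47, 12.38 and 12.48, 7.74 and 9.0, and 6.10 and 6.73. The genotypes did not overlap in any population, and the shared rise was 1.37 ± 0.22 (adjusted p = 0.0465 in limma). Papln, which encodes the matrix glycoprotein papilin, rose by 1.33 ± 0.17, most in alveolar progenitors, where it read 8.49 and 8.48 in wild-type and 10.04 and 10.57 in knockout mice. In non-clonogenic luminal cells its arrays overlapped, with 6.16 and 6.60 against 6.55 and 7.14.

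Aqp3, a channel for water and glycerol, was the most even of the large rises. It read 9.10 and 10.09 in wild-type against 10.78 and 10.66 in knockout non-clonogenic luminal cells, and 9.08 and 10.25 against 11.36 and 10.52 in ductal progenitors. In alveolar progenitors it read 9.89 and 8.65 against 10.33 and 10.48, and in myoepithelial cells 10.22 and 10.19 against 11.32 and 11.13. The 4 within-population differences were 1.12, 1.27, 1.14 and 1.02, and their mean 1.14 ± 0.14 (adjusted p = 0.0233 in limma). The other probe sets, which were dimmer, showed 0.47 ± 0.29 and 0.39 ± 0.16, and with the mean of all 3 Aqp3 was at 0.67 and not called. It belongs to a list of 29 epithelial transporters and ion channels, of which 5 rose and 0 fell (17.2% called, against 2.88% of all genes and 0.304% higher), with a median of 0.14. The others were the Na,K-ATPase regulator Fxyd2 (1.30 ± 0.13), the sodium channel subunit Scnn1b (0.75 ± 0.11), Foxi1 (0.63 ± 0.10), a transcription factor of ion-transporting cells, and the chloride cotransporter gene Slc12a2 (0.48 ± 0.07).

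Of 24 sphingolipid enzymes, 2 rose and 0 fell (8.33% called, against 2.88% of all genes). Sphk1 makes sphingosine 1-phosphate. It read 8.38 and 9.01 in wild-type against 10.12 and 9.94 in knockout non-clonogenic luminal cells and 7.69 and 8.85 against 10.55 and 9.80 in ductal progenitors, and in the other populations 8.71 and 8.04 against 9.18 and 8.99, and 10.66 and 10.25 against 11.06 and 11.37. No population overlapped, the shared rise was 1.18 ± 0.13 (adjusted p = 0.0189 in limma), and the other probe set of Sphk1 showed 0.79 ± 0.11. Sgms2, a sphingomyelin synthase, rose by 0.77 ± 0.11. The list's median was 0.05.

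Esr1, the estrogen receptor alpha gene, rose in each population, also in those where it was low. It read 10.83 and 11.12 in wild-type against 11.62 and 11.55 in knockout non-clonogenic luminal cells, 10.61 and 11.15 against 12.04 and 11.54 in ductal progenitors, 8.29 and 7.88 against 8.60 and 8.60 in alveolar progenitors, and 7.30 and 7.02 against 8.07 and 8.08 in myoepithelial cells. The shared difference was 0.74 ± 0.11 (adjusted p = 0.0398 in limma), and no population overlapped. Of 15 hormone-sensing luminal markers 3 rose (Esr1, Fxyd2 and Ly6d, at 1.05 ± 0.14) and 0 fell, which is 20.0% called against 2.88% of all genes, and the list's median was 0.18. In the same order of populations the medians of this list were 0.19, 0.39, 0.19 and 0.04. Those of 14 pan-luminal markers were 0.26, 0.38, 0.02 and 0.30. Whether luminal cells came along in the myoepithelial sort was not tested. Ly6d was higher mainly in non-clonogenic luminal cells (1.67) and in ductal progenitors (2.07), against 0.41 in alveolar progenitors and 0.05 in myoepithelial cells. Of 16 genes of hormone receptors and the RANKL axis, Esr1 was the only one called (6.25%, against 2.88% of all genes).

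**Figure D3:**
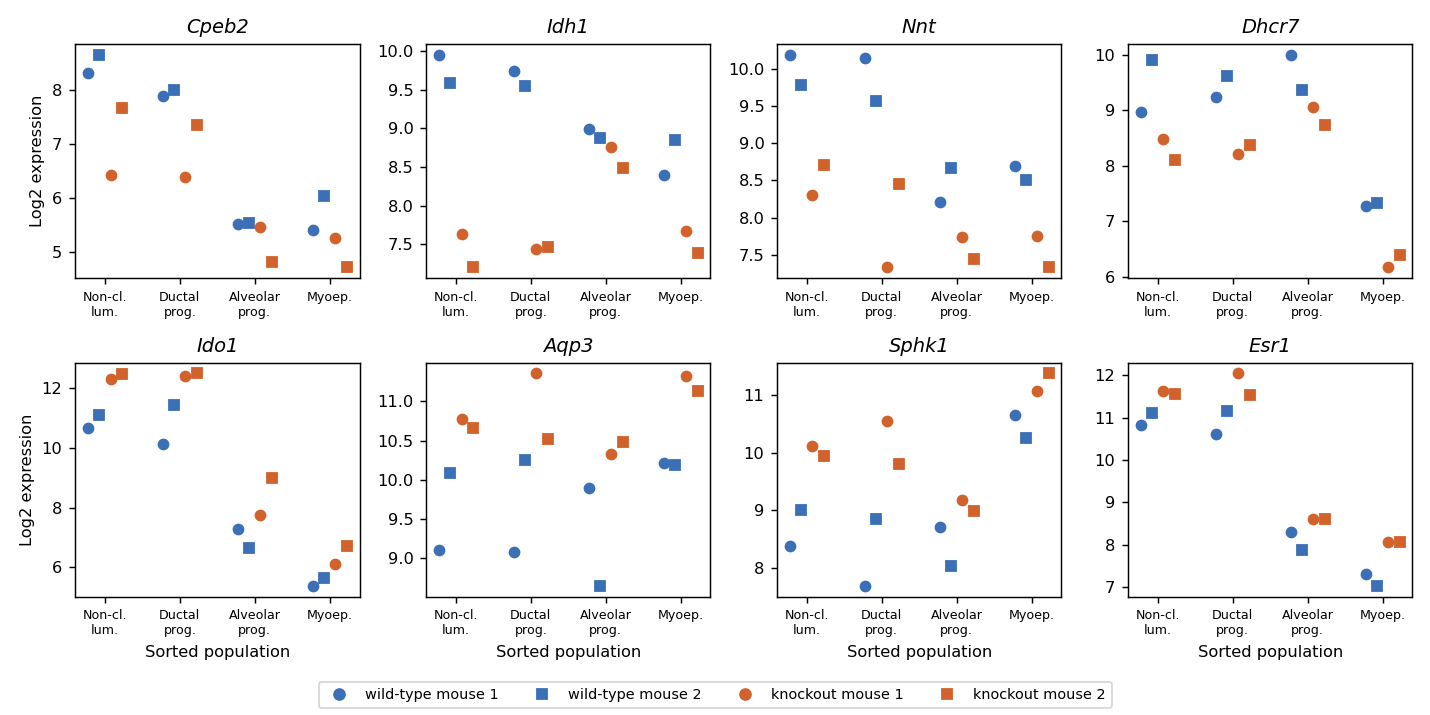
Log2 expression in each of the 16 arrays of 8 genes, by sorted population, each panel with its own vertical axis; colour is genotype and marker shape is the mouse within the genotype. In each panel the knockout arrays lie on 1 side of the wild-type arrays in all 4 populations: below for Cpeb2, Idh1, Nnt and Dhcr7, above for Ido1, Aqp3, Sphk1 and Esr1.

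The remaining rises by rule ranged from 0.67 to 1.01. Ell, an elongation factor of RNA polymerase II, rose by 1.01 ± 0.14, and Nabp1, which binds single-stranded DNA, by 0.92 ± 0.11. The sialyltransferase gene St3gal1 rose by 0.90 ± 0.14, opposite to St6gal1: its animal means were 9.90 and 9.64 in wild-type and 10.58 and 10.76 in knockout mice, while those of St6gal1 were 7.54 and 7.75 against 6.42 and 6.36. St6gal1 fell most in alveolar progenitors (-2.22) and least in non-clonogenic luminal cells (-0.30), and St3gal1 differed by 0.60 to 1.13 in the 4 populations. The lipid transfer gene Osbpl3 (0.74 ± 0.11) and the proteoglycan gene Snorc (0.74 ± 0.12) rose most in alveolar progenitors, by 1.51 and 1.93, and the basement membrane gene Ntn4 (0.72 ± 0.10) in alveolar progenitors and myoepithelial cells, by 1.39 and 1.12. The ERK phosphatase gene Dusp7 (0.70 ± 0.10), the lysosomal protease gene Ctsl (0.68 ± 0.10) and the polyamine transporter gene Atp13a3 (0.67 ± 0.10) were higher by at least 0.26 in every population.

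Several lists leaned to 1 side with no member called on animal means, while the median over all genes was 0.02. The fit over 16 arrays called 544 of 17097 genes higher, and 8 of 32 immediate early and dissociation stress genes. It called 3 of 23 hypoxia and glycolysis genes and 1 of 17 clock genes higher, and 3 of 36 interferon response genes lower. Of 31 genes of the unfolded protein and integrated stress response it called 2 higher and 1 lower. The mean was above 0 for 30 of 32 immediate early and dissociation stress genes (median 0.21), 24 of 31 genes of the unfolded protein and integrated stress response (0.29), 19 of 23 hypoxia and glycolysis genes (0.27) and 15 of 17 clock genes (0.34). It was below 0 for 32 of 36 interferon response genes (median -0.28). Cxcl10, an interferon-induced chemokine, differed most there: its animal means were 8.26 and 9.64 in wild-type and 7.34 and 8.07 in knockout mice, a difference of -1.24 ± 0.49 with adjusted p = 0.234 in limma, and wild-type mouse 1 was closer to knockout mouse 2 than to wild-type mouse 2. Lists with medians between -0.13 and 0.18 and no call were those of ribosome biogenesis, fatty acid synthesis, the Notch pathway, growth factors, pan-luminal and myoepithelial markers, p53 and growth arrest, apoptosis and the retinoid pathway.

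**Figure D4:**
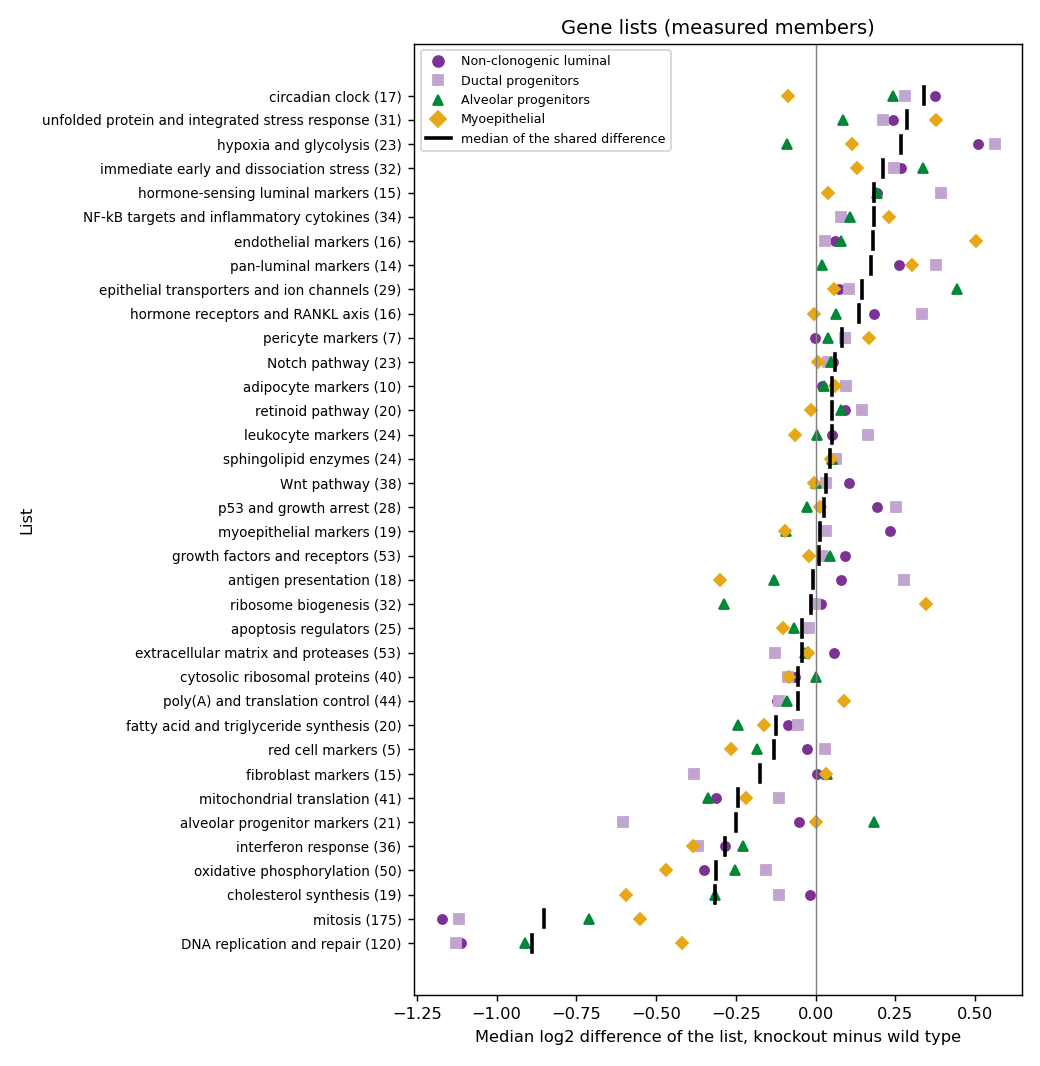
Median log2 difference, knockout minus wild type, of the measured members of each gene list (number in brackets), by sorted population (points) and for the shared effect (bar). The 2 cell cycle lists stand at -0.85 and -0.89, and the other bars lie between -0.32 and 0.34.

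Markers of cells that a sort could carry along were measured as well. None of the 24 leukocyte, 16 endothelial, 10 adipocyte, 7 pericyte or 5 red cell markers was called, against 2.88% of all genes. At that share, lists this short would hold few calls in any case. Of 15 fibroblast markers Fbln1 alone was called (6.67%, against 2.88% of all genes) and fell by 0.65 ± 0.11. The mean of the leukocyte list lay between 5.62 and 5.69 in knockout and between 5.42 and 5.77 in wild-type arrays, and that of the fibroblast list between 5.68 and 6.67 and between 5.6 and 7.24. The endothelial list had a median difference of 0.18 and ran from 5.75 to 6.94 in knockout and from 5.75 to 6.27 in wild-type arrays. Its median was 0.06 in non-clonogenic luminal cells, 0.03 in ductal progenitors, 0.08 in alveolar progenitors and 0.50 in myoepithelial cells. The part of such carried-along cells in the results was not tested. The 3′ minus middle difference of the Gapdh control probe sets, a measure of RNA integrity, lay between -0.03 and 0.49 in knockout and between 0.02 and 0.60 in wild-type arrays.

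For some called genes the mean hides differences between populations. An F test for a difference of the effect among the populations called 122 genes (0.714%), 32 of which were among the 492. Rspo1, a secreted Wnt agonist, was called in the shared effect (-0.92 ± 0.08) through alveolar progenitors (-2.45) and ductal progenitors (-1.20), with 0.12 in non-clonogenic luminal cells and -0.14 in myoepithelial cells. Muc15, a membrane mucin, was called at -1.04 ± 0.08 with -3.05 in ductal progenitors and values from -0.59 to -0.06 elsewhere. Cd1d1, which presents lipid antigens, was called at -1.0 ± 0.11 with -2.38 and -2.05 in the Sca1 positive luminal cells and 0.39 and 0.02 in the others. Rspo1 and Cd1d1 are called in the mean without 1 sign in all 4 populations, while Muc15 had 8 of 8 within-pair signs and differed in size.

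The wild-type mice offered a comparison that holds no knockout array. Since mouse 1 had the higher cell cycle level in Sca1 positive luminal cells and mouse 2 in the other populations, the difference mouse 2 minus mouse 1 was taken as the mean of alveolar progenitors and myoepithelial cells, minus the mean of non-clonogenic luminal cells and ductal progenitors. This contrast was chosen after the levels had been seen and rests on 2 mice, so it has no test, and it uses other differences between arrays than the knockout effect does. Its median was -0.01 over all genes and 1.58 over the 151 called cell cycle genes. Over the other genes that fell it was 0.68, with 187 of 289 above 0.5, where 10.5% of all genes were, and over those that rose it was -0.48, with 25 of 52 below -0.5. The quartiles over all genes were -0.20 and 0.19. Cpeb2 (0.09) and Snorc (-0.19) lay between them, and Aldh1a7 (0.23), Ptgr1 (0.29), Ntn4 (0.29), Osbpl3 (-0.31) and Idh1 (0.44) lay outside them but within 0.5 of 0. Of the other called members of the wider enzyme list, Aldh5a1 was at -0.20, Mgst1 at 0.27 and Tpmt at 0.31, also within 0.5 of 0. Abcg2 was at 0.62, Nnt at 0.63, Cat at 0.68, Aldh3a1 at 1.26 and Prdx4 at 1.47. Sdhd of complex II was at 1.62. Dnajc9 was at 1.65 and H3c14 at 2.32. Of the genes that rose, Esr1 was at -0.76, Papln at -0.96, Ido1 at -1.04, Sphk1 at -1.43, Sgms2 at -1.55 and Aqp3 at -1.72. Dhcr7, which fell, was at -0.95, on the side where most genes that rose lay.

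**Figure D5:**
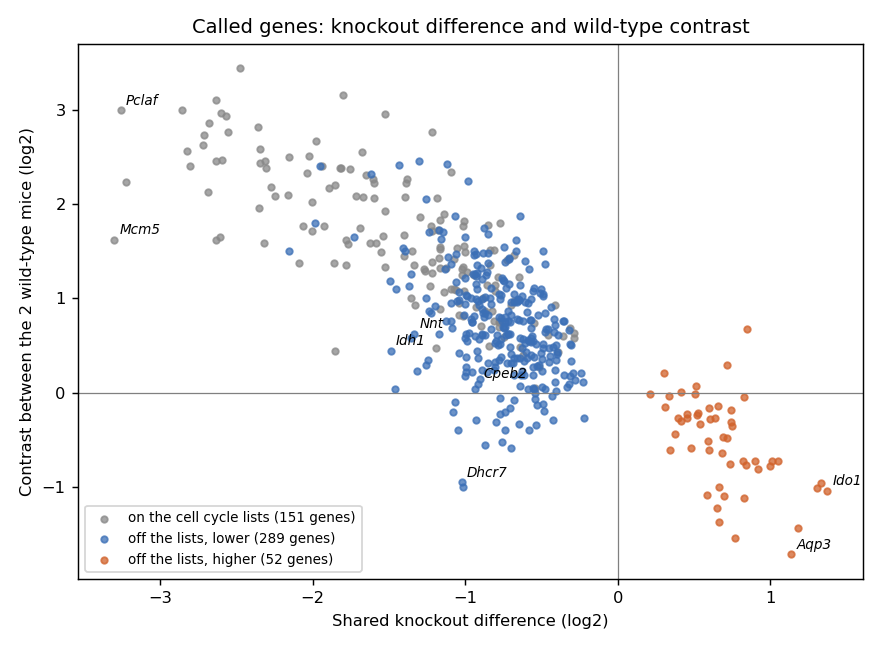
Shared knockout difference (horizontal, log2) and contrast between the 2 wild-type mice (vertical, log2) of the 492 called genes, by group. Genes that fell lie mostly above 0 on the vertical axis, with medians of 1.58 on the cell cycle lists and 0.68 off them, and genes that rose lie mostly below it, with a median of -0.48.

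With the level of the cell cycle lists in each array as a covariate in a fit over 16 arrays, limma called 0 genes, and 1304 had an unadjusted p under 0.05. Cell cycle level and genotype moved together in these arrays and cannot be fully told apart. Of the 151 genes off the lists that fell with 8 of 8 signs, 114 kept a negative difference in it, and of the 27 that rose 23 kept a positive one. Of the called cell cycle genes 82 of 151 kept theirs. The covariate is a mean that includes these genes, so this count cannot be set beside the others. With the covariate Cpeb2 was at -0.92 ± 0.53, Idh1 at -1.09 ± 0.24, Nnt at -0.96 ± 0.43, Ntn4 at 1.02 ± 0.37 and Snorc at 0.65 ± 0.32. None of these was called, and Idh1, Nnt and Snorc were smaller in size than without the covariate. Ntn4 was larger, as were Dhcr7 (-1.72 ± 0.32 in place of -1.02) and Aldh5a1 (-0.86 ± 0.18 in place of -0.74). Others shrank more. Ido1 was at 0.53 ± 0.49 in place of 1.37, Papln at 0.50, Sphk1 at 0.16 and Esr1 at 0.18. Slc12a2 was at 0.0098, Slfn9 at -0.04, Topbp1 at -0.21 and Aldh3a1 at -0.34. Aqp3 (-0.14), Sgms2 (-0.49), H3c14 (0.37) and Sdhd (0.63) changed sign.

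Genes close to Cpeb2 can be inherited with the deleted allele on a mixed strain. Of the 200 measured genes nearest to it on chromosome 5, 2 rose and 5 fell (3.5%, against 2.88% of all genes), and 2 of those that fell were cell cycle genes, Ncapg (-2.03 ± 0.21) and Tacc3 (-1.39 ± 0.14). Of the others with 8 of 8 within-pair signs, the NF-kB regulator Tnip2 rose by 0.52 ± 0.07 and Ociad2 fell by 0.72 ± 0.12. The median over the 200 was 0.04, against 0.02 over all genes.

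The count of calls depends on each knockout mouse: without knockout mouse 1 limma called 39 genes, and without knockout mouse 2 it called 0, with 2278 at an unadjusted p under 0.05. All 80 called genes followed by name kept their sign when any mouse was left out, with no difference moving by more than 1.5 times. These genes were called on the same mice, which favours this outcome, so it is no test of them.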

How the data were processed

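RNA from sorted mammary epithelial cells was measured on 16 Affymetrix mouse arrays, 4 per mouse. Total RNA (15 ng) was amplified and 8 µg of cDNA labelled, per the labels' protocols. The values are log2 expression per probe set as deposited by the authors. RMA and limma stand in the submitters' processing notes without role or version, and filters and batch handling were not given in the sources used here. Of 45141 probe sets, 28898 had 1 gene symbol in the array's annotation, 551 several and 15588 none, and 104 were controls. The identifiers of 28689 matched the mouse gene table of GRCm38.p6, and 0 symbols changed. Each gene was represented by its probe set with the highest mean, 7180 of 17097 genes having several. Among 238 called genes with several, 83 had another probe set called the same way and 0 the opposite way. Probe sets with no or several symbols were tested apart: 173 of 16139 were called and none is named. Array medians were 6.35 to 6.40, and the correlation across probe sets between replicate arrays was 0.975 to 0.991.

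The shared effect was fitted with limma 3.58.1 in R 4.3.3 (lmFit, eBayes with a trend) on 4 animal means, with 2 residual and 3.45 prior degrees of freedom. Calls are at a Benjamini-Hochberg adjusted p under 0.05 over all genes, and errors are standard errors of the fit. A limma F test over 16 arrays, with the animal as a block, asked whether the effect differed between populations. Statmod 1.5.0 served duplicateCorrelation. The p-values measure the spread between 2 mice per genotype. The pairing comes from the labels, which give same-numbered mice of both genotypes the same parents. Deviations of paired animals from their group means correlated at 0.19, and at -0.04 to 0.07 within populations.

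Named were the CPEB genes, Tnfsf11, the 15 largest falls and 15 largest rises off the cell cycle lists and the 6 largest on them with 8 of 8 within-pair signs, the 5 smallest p of the F test, up to 4 called members per list (2 others where none was called) and up to 6 called neighbours of Cpeb2. Genes without an established symbol were counted only. The genes, lists and tests were chosen with earlier results of these data known. The fit was tested on simulated data for the shared effect over 17097 genes. There 100% of genes changed by 2 log2 units and 88% of those changed by 1 were recovered, with 9 unchanged genes called. The simulated noise was drawn for each array apart, with no part shared by the arrays of a mouse. These rates may therefore not hold for the real arrays. Of 492 called genes, 72 had a genotype mean under the lower quartile of the arrays, so their differences may be lower bounds in size. Alternatives were the unit of the fit, the replicate block, the probe sets, a filter on low values, the variance prior, normalization, each mouse and population left out, and the cell cycle level as a covariate.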

Additional observations from a re-analysis of the deposited data

Results flagged for a closer look

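The knockout effect of 13 genes named here differed between the 4 populations by limma's F test, and their values are given in the order non-clonogenic luminal cells, ductal progenitors, alveolar progenitors and myoepithelial cells. Lcn2, the secreted iron-siderophore binder lipocalin 2, differed by -2.46, -0.23, 0.24 and 0.29 (adjusted p = 0.00657). Cd1d1, which presents lipid antigens, differed by -2.38, -2.05, 0.39 and 0.02 (adjusted p = 0.00657). The ceruloplasmin gene Cp, a copper-binding ferroxidase, differed by -3.00, -1.38, 0.50 and -0.03 (adjusted p = 0.00657) and was not called in the shared effect (adjusted p = 0.0659). In each of these genes the largest falls lay in Sca1 positive luminal cells.

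The proton pump subunit Atp6v1c2 differed by 0.16, -0.28, -1.75 and -0.26 (adjusted p = 0.00657) and Cnmd, which encodes chondromodulin, by -0.07, -0.05, -1.31 and -0.08 (adjusted p = 0.00976); neither was called in the shared effect. Rspo1 (adjusted p = 0.0104) and the sodium channel subunit Scnn1b (0.51, 1.0, 1.67 and -0.19; adjusted p = 0.0328) also differed most in alveolar progenitors, as did Foxi1 (0.07, 0.38, 2.03 and 0.05; adjusted p = 0.0281). Muc15 differed mainly in ductal progenitors (adjusted p = 0.00976). The protease gene Adamts18 differed by 0.06, 0.03, 0.02 and -1.73 (adjusted p = 0.0162) and was called in the shared effect through myoepithelial cells. The F tests are those of limma.

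Idh1 (adjusted p = 0.0281 for limma's F test) and the tetraspanin gene Tspan6 (-1.84, -1.58, -0.52 and -0.37; adjusted p = 0.0428 for limma's F test) were lower in every population, so for them it was the size that differed. The stress-inducible gene Gadd45g differed by 1.93, 2.57, 0.09 and 0.07 (adjusted p = 0.0428 for limma's F test) and was not called in the shared effect (adjusted p = 0.0747).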

How the results depend on the processing

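Of the shared effect's 492 calls, 423 had the same sign in all 4 populations. Both counts stayed within 1.5 times with the mean of all probe sets (456 and 401), without genes of low mean (483 and 418), with a robust prior (561 and 472), after another quantile normalization (478 and 418), without alveolar progenitors (413 and 376) and without myoepithelial cells (343 and 310). They moved further in the fit over 16 arrays (1748 and 1340), with the parent pair as a replicate block (994 and 781), with no trend in the prior (277 and 254), without non-clonogenic luminal cells (264 and 247), without ductal progenitors (208 and 199) and with the cell cycle covariate (0 and 0, with 1304 genes at an unadjusted p under 0.05 in limma). Leaving out 1 mouse at a time gave 0 to 434 and 0 to 309 calls. A lone mouse of a genotype was then assumed to vary like the other group. The F test called 122 genes, 143 with the parent pair as a replicate block, 70 with no trend and 1 to 1398 without 1 mouse; the highest count was without wild-type mouse 2. The replicate block ended none of the 492 calls.

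Of the 80 called genes followed by name, 39 lost their call without wild-type mouse 1, 34 without wild-type mouse 2, 73 without knockout mouse 1 and 80 without knockout mouse 2, and 65 kept their sign but lost the call with the covariate. With the covariate the difference changed sign for Cpeb1 (-0.30), Tnfsf11 (0.32), Aqp3 (-0.14), Sgms2 (-0.49), Dusp7 (-0.15), Atp13a3 (-0.46), H3c14 (0.37), Sdhd (0.63), Atp5k (0.11), Mrpl13 (0.0202), Fbln1 (0.0118), Tacc3 (0.43), Arntl (-0.60), Prdx4 (0.0309), Parp1 (0.17), Hmgn5 (0.28), Chek2 (0.0309) and Haus1 (0.17). The cause was not tested. Cpeb3 was at -0.0102 with the mean of all probe sets. Cpeb4, not called in any setting, was at -0.16 without wild-type mouse 1, -0.16 without knockout mouse 1, -0.25 without alveolar progenitors and -0.11 without myoepithelial cells. Lcn2 turned to 0.10 without non-clonogenic luminal cells and Adamts18 to 0.037 without myoepithelial cells, the populations that held their falls.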
